A study of Mus musculus with 12 samples.

Results

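The Actr3 knockout line was compared with its control line. Both are mIMCD3 cells, which come from the collecting duct of the inner medulla of the mouse kidney. The comparison used 6 of the 12 libraries of the study, chosen by their column names alone: the 3 libraries labelled as control and the 3 labelled as the Actr3 knockout (Actr3 KO). The control samples are labelled wild type and as 1 line, Control 1, and the knockout samples as 1 line, Actr3 KO-1, so the genotype and the line cannot be told apart. Both lines grew to confluence over 48 h (10% fetal calf serum, 5 mM HEPES) and then spent 24 h without serum. Solvent was added where cells did not receive ciliobrevin D, a dynein inhibitor. The other 6 libraries came from cells in which Ift88, a gene needed for cilia, was knocked out as well (dKO) and from Actr3 KO cells given 0.5 µM ciliobrevin D during starvation. They entered no test reported here other than an alternative that pools the spread of all 12 libraries, and their means are given only where a gene's values are set side by side. The name of 1 control column gives a control line number of 2, which no sample label has, so this library may come from a second control line. It entered as a control without a replicate number, and the counts of calls without it are given with those of all libraries. Nothing in the labels says that replicates were separate cultures, and the p-values therefore reflect only how far these libraries differ within a group. That spread may be technical, and in control it may include a second line.

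Actr3 encodes ARP3, an actin-related protein at the core of the Arp2/3 complex. The complex binds the side of an actin filament and starts a new branch from it, and proteins of the WASP and WAVE families switch it on. Branched actin pushes membranes forward at the cell edge and takes part in endocytosis, cell adhesion and epithelial junctions. Collecting duct cells also carry a primary cilium, which mIMCD3 cells assemble after serum withdrawal and whose assembly is sensitive to the actin network.

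Values are normalized counts. The values of a gene are listed for control replicate 1, the unnumbered control library and control replicate 3, and then for Actr3 KO replicates 1, 2 and 3. Means are given ± SD (n = 3), and a log2 fold change is the difference of the group means of log2(value + 1), Actr3 KO minus control, which understates the change of genes with low values. A gene was called when its limma p-value, adjusted by the Benjamini-Hochberg method over all genes tested, was under 0.05. Of 13549 genes tested, 4797 (35.4%) were called higher in Actr3 KO and 4962 (36.6%) lower, 72% in all. At least 2-fold changes were called for 787 genes (5.81%) upward and 793 (5.85%) downward, together 11.7%. Without the unnumbered control library, 4481 genes were called higher and 4677 lower, 771 and 770 of them at least 2-fold. The 3 control and 3 Actr3 KO libraries did not overlap for 74.3% of the genes. Lack of overlap was also a condition for naming the genes with the highest and lowest fold changes, so it is no result for those. Most list members were named for a small adjusted p, which favours genes without overlap. For them too, lack of overlap and a small adjusted p describe the values and add no support. The median log2 fold change of all genes was 0.00, and the middle 90% lay between -1.07 and 1.08. Lists of genes are described below by counts and medians, to be read against these shares, without a test of the list. Genes whose chromosome or role in a count is singled out, such as the members of a list that went against its other calls, were named after their values were seen.

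Recovered reads ranged from 37001577 to 38077987 in the control libraries and from 31425219 to 34977447 in the Actr3 KO libraries. All samples had an RNA quality number of 10.0, per the labels. Of 14 markers of collecting duct principal cells, 10 passed the filter on low values, but the water channel Aqp2 had 0 reads in all 6 libraries. The summed level of the 14 markers was 72592 to 80853 in control and 41950 to 45544 in Actr3 KO, most of it from the keratins Krt8 and Krt18 and from Epcam and Cdh1. The single markers did not share 1 direction. Of the 10 tested, 5 were called lower, 2 higher, Gata3 among them, and 3 were not called, Cdh1 among them (median -0.28). Without the unnumbered control library 1 was called higher. Of 8 markers of fibroblasts only Col1a1 passed the filter, with log2 fold change -0.15 (not called, adjusted p = 0.333), while Col1a2 and Col3a1 had 0 reads in both lines. The summed fibroblast markers were 122 to 184 in control and 138 to 153 in Actr3 KO. Of 9 immune and endothelial markers 2 passed, and their sum was 186 to 214 in control and 163 to 175 in Actr3 KO. Of 11 markers of other nephron cells 2 passed, and the sum was 10694 to 12788 in control and 14708 to 17465 in Actr3 KO, nearly all of it from the endocytic receptor Lrp2. Whether a level differs because fewer cells make an RNA or because each cell makes less of it cannot be told apart in bulk samples.

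Actr3, the edited gene, and the other 8 tested subunits of its complex were all called lower in Actr3 KO, 9 of 9 where 36.6% of all genes were. The share called lower was 54.2% on chromosome 5, which holds Arpc3, Arpc1a and Arpc1b. It was 64.2% on chromosome 6, which holds Arpc4. Actr3 (Entrez 74117, chromosome 1) was at 8101, 8664 and 8243 in the control libraries and at 1347, 1145 and 1163 in the Actr3 KO libraries. Each Actr3 KO library was below every control library, and the log2 fold change was -2.78 ± 0.06 (SE), adjusted p = 4.91e-17. Transcript therefore remained at a level of 1218 normalized counts on average, and a count per gene cannot tell whether this transcript encodes intact protein. Actr2, which encodes the partner protein ARP2, was at 9699.6, 9236 and 9631 in control and at 5869, 5752 and 5784 in Actr3 KO. Arpc3, a small subunit of the complex, was at 5322, 5786 and 5378 against 2602, 2971 and 2499. The groups did not overlap for either gene, and the log2 fold changes were -0.71 ± 0.05 (SE) and -1.03 ± 0.06 (SE). Arpc2, which with Arpc4 forms the core that holds the complex together, had a log2 fold change of -0.63, and Arpc4 of -0.83. The paralogs Arpc1a and Arpc1b, which encode alternative forms of the same subunit, had -0.35 and -0.62. The paralogs Arpc5 and Arpc5l had -0.57 and -0.62. Without Actr3 itself the fold changes of the subunits thus ran from -1.03 to -0.35. Actr3b, a second gene for ARP3, did not pass the filter on low values. The call of Arpc1a on chromosome 5 was lost when chromosome medians were removed (log2 fold change -0.10, adjusted p = 0.0887).

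**Figure D1:**
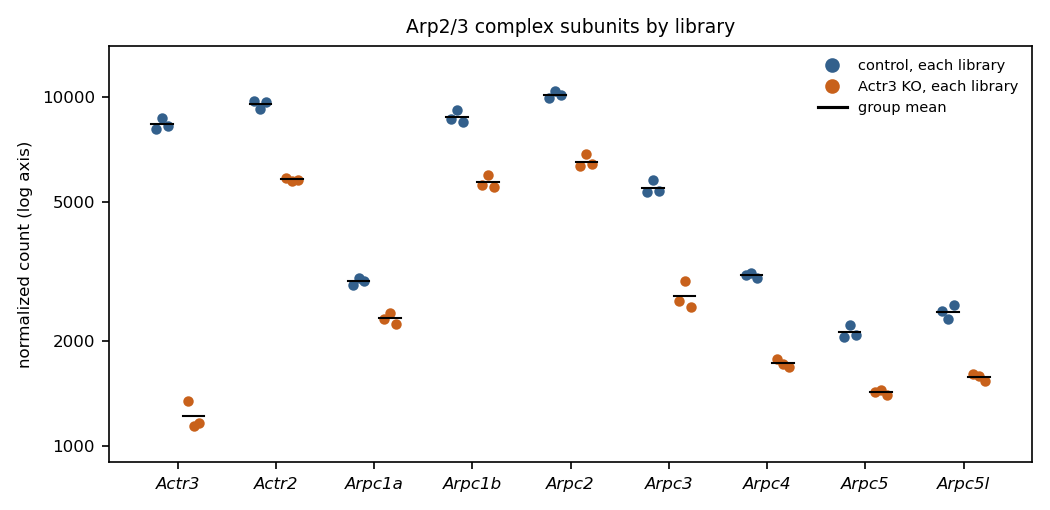
Normalized counts (log axis) of the 9 tested Arp2/3 subunits in each library, blue for control, orange for Actr3 KO, with a black line at the group mean. Actr3 falls from a mean of 8336 to 1218, and the 3 Actr3 KO libraries lie below the 3 control libraries for every subunit.

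The proteins that switch the complex on or off did not share 1 direction. Of 28 tested activators and regulators, 8 were called higher and 12 lower, with a median of -0.06. Brk1, a small subunit of the WAVE complex on chromosome 6, was at 2744, 2748 and 2765 in control and 1199.7, 1243 and 1118 in Actr3 KO. Its libraries did not overlap (log2 fold change -1.21 ± 0.06 (SE), adjusted p = 8.1e-13). Cyfip2, another WAVE complex gene, was low in both lines and fell from 31.5 ± 8.7 to 9.57 ± 2.76. The count of higher members fell to 5 without the unnumbered control library, without control replicate 3 or without Actr3 KO replicate 1. Formins, which build unbranched filaments, were divided as well, with 5 of 15 higher and 5 lower. Fhod3 was at 5705, 5368 and 5270.4 against 7403, 7583 and 8305, and Spire1, a nucleator of another family, at 617, 564 and 665 against 355, 353 and 404. The libraries of each gene did not overlap, and the log2 fold changes were 0.51 and -0.73. The count of lower members was 3 without control replicate 1, Actr3 KO replicate 1 or Actr3 KO replicate 2.

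Genes for actin itself and for proteins that bind its monomers were mostly lower. Of 24 proteins of actin monomer and filament turnover, 18 were called lower, 7 of them at least 2-fold, and 3 higher (median -0.46). Tmsb10, a thymosin that sequesters actin monomers, was at 22070.0, 23884 and 22035 in control and 5862, 6059 and 5369 in Actr3 KO. Cfl1, the filament-severing protein cofilin, was at 37736, 38988 and 38172 against 17055, 18333 and 17014. Pfn1, the monomer-binding protein profilin, was at 23708, 24546 and 22822 against 11094, 12324 and 10755. None of these 3 genes overlapped between the lines, and their log2 fold changes were -1.98 ± 0.06 (SE), -1.13 ± 0.07 (SE) and -1.06 ± 0.07 (SE). Also lower were Pfn2 (-1.08), the capping protein gene Capza2 (-1.24) and Eps8 (-1.52), a regulator that caps and bundles filaments; Tmsb10, Capza2 and Eps8 lie on chromosome 6. Among 24 actins and contractile genes driven by the MRTF and SRF factors, 13 were called lower and 4 higher (median -0.31). Beta-actin (Actb) was at 71547, 69632 and 67392 in control and 27709, 28894 and 27650.4 in Actr3 KO, log2 fold change -1.31 ± 0.08 (SE). Fhl2, which encodes a LIM-domain protein, fell by 1.26 on the log2 scale. Acta1, the skeletal muscle actin, went the other way from low values, at 30.3, 29.4 and 20.8 against 66.5, 103 and 80.4 (log2 fold change 1.59, adjusted p = 1.42e-06). Myl9, a myosin light chain also at low values, had -1.20. Without Actr3 KO replicate 1, 7 members were called higher. Tubulins shifted together: 9 of 11 were called lower and none higher (median -0.60), with Tuba1c at 1137, 1362 and 1234 against 692, 695 and 595 and Tuba4a at -0.60. Several of these tubulin and actin genes have near-identical copies, so their counts are uncertain. Of 23 cytoplasmic dynein and dynactin genes, 12 were called lower and 3 higher (median -0.17); the light chain genes Dynll1 (-0.91) and Dynlrb1 (-0.74) had the smallest adjusted p.

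Of the structural lists, the basement membrane genes had the highest median fold change, and matricellular genes were mostly lower. Of 28 laminin, collagen and related genes, 22 were called higher, 8 of them at least 2-fold, and 5 lower, 4 of them at least 2-fold (median 0.76). Lama1, a laminin chain of embryonic and tubular basement membranes, was at 179, 168 and 175 in control and 1747, 1684 and 1929 in Actr3 KO. The lowest Actr3 KO library was several times above the highest control library, and the log2 fold change was 3.35 ± 0.07 (SE), adjusted p = 4.91e-17. Collagen VI rose through 2 of its chains, Col6a1 from 249.7, 233 and 219 to 1430.1, 1561 and 1535 and Col6a2 from 66.9 ± 15.1 to 480.4 ± 53.2. Col4a3 and Col4a4, adjacent genes for collagen IV chains of mature kidney basement membranes, were at 6093, 6039 and 7479 against 15881, 16095 and 17897 and at 4128, 3844 and 4563 against 12249, 11929.5 and 12998. Their log2 fold changes were 1.35 and 1.57, with no overlap between lines. Agrn, Hspg2 and Lama5, the abundant genes for agrin, perlecan and a laminin chain, rose by 1.02, 0.96 and 0.87, and were added after their values were seen. The 5 lower members were Plod2, P4ha1 and P4ha2, which modify collagen in the cell, and the nidogens Nid1 and Nid2, which link the laminin and collagen networks; Plod2 was at 10084, 13006 and 14027 against 3599, 3654 and 4149 (log2 fold change -1.69). Of 24 integrin and focal adhesion genes, 13 were called higher and 6 lower (median 0.34). The receptors for collagen Itga1 and Itga2 rose by 1.16 and 1.61, Itgb4 of hemidesmosomes by 1.28, Tln2, which links integrins to actin, by 1.29 and Parvb, an adaptor, by 1.04. Itga9 fell from 499 ± 24.3 to 238 ± 2.95.

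Of 16 matricellular proteins and proteases, 10 were called lower, 8 of them at least 2-fold, and 3 higher (median -0.94). Plat, the tissue plasminogen activator, was at 49677, 62684 and 56029 in control and 8109.8, 9088 and 9899 in Actr3 KO. Spp1, osteopontin, was at 26058, 29509.7 and 29354 against 6215, 7287 and 7178. The libraries of both genes did not overlap, and the log2 fold changes were -2.63 ± 0.09 (SE) and -2.04 ± 0.07 (SE). The urokinase receptor gene Plaur (-1.50), the connective tissue growth factor gene Ccn2 (-1.61) and the protease inhibitor Timp3 (-1.48) were lower too. Fibronectin (Fn1) and thrombospondin 1 (Thbs1) were among the 8 genes that lost the most counts, Fn1 from 135172 ± 5396 to 80257 ± 9778 and Thbs1 from 71898 ± 2315 to 33255 ± 3681. Among 21 genes of the YAP and TAZ pathway and its targets, 12 were called lower and 6 higher (median -0.30). Fstl1, a secreted follistatin-like protein, was at 662, 609 and 587 against 7.94, 8.28 and 3.83, log2 fold change -6.39 ± 0.21 (SE). The cofactor Vgll3 had -3.88 and the transcription factor Tead4, on chromosome 6, -1.02. Nt5e, the ecto-enzyme CD73, rose from 17.4 ± 1.62 to 130.3 ± 17.2.

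**Figure D2:**
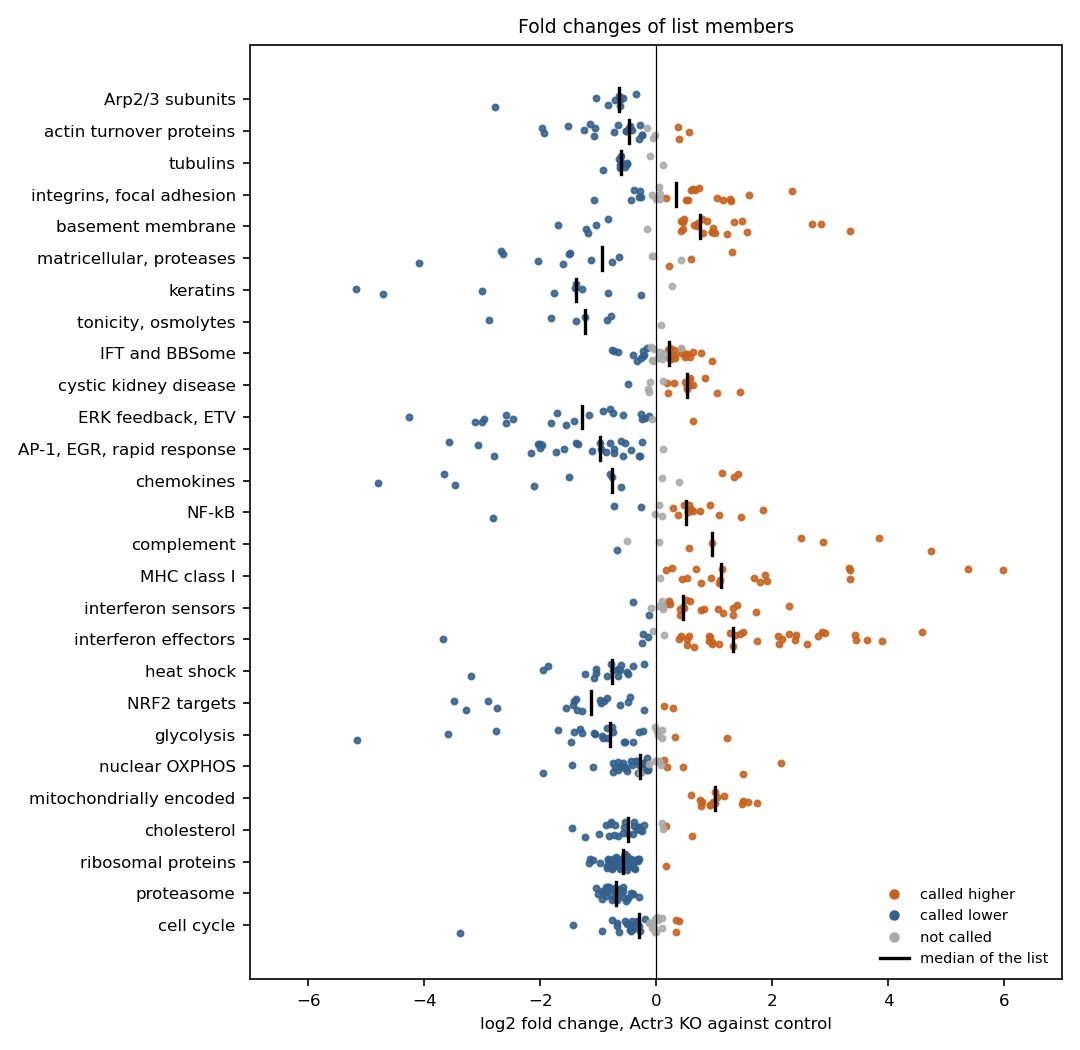
Log2 fold change (Actr3 KO against control) of each tested member of 26 gene lists and of the mitochondrially encoded genes, 1 point a gene, orange called higher, blue called lower, grey not called, with a black bar at the median of the list. Interferon effectors (median 1.32) and class I antigen presentation genes (1.12) lie to the right, and ERK feedback genes (-1.28), keratins (-1.38) and NRF2 targets (-1.12) to the left.

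Keratins, connexins and several claudins and transporters were lower, while cadherin and catenin genes were divided. Of 10 keratins, 9 were called lower, 7 at least 2-fold, and none higher (median -1.38). Krt8 and Krt18, the pair of simple epithelia, were at 23799, 26707 and 25311 against 9234, 10336 and 9611 and at 12428, 13822 and 13565 against 5119, 5866 and 5355. Krt19, of ductal epithelia, was at 13475, 15461 and 15570.2 against 4114, 4496 and 4418. No library of 1 line reached into the range of the other, and the log2 fold changes were -1.38 ± 0.07 (SE), -1.29 ± 0.06 (SE) and -1.77 ± 0.06 (SE). Keratins of lower level fell further, Krt20 from 165 ± 8.51 to 3.68 ± 1.3, Krt5 from 108 ± 19 to 3.68 ± 2.61 and Krt23 from 30.1 ± 8.88 to 2.98 ± 1.72. Of 26 tight junction and polarity genes, 10 were called lower and 7 higher (median -0.03; 9 lower and 12 higher after quantile normalization). The claudins Cldn8, at 834, 879.7 and 1008 against 243, 188 and 173, and Cldn4, at 44496, 53800.1 and 56068 against 17817, 20605 and 19288, were the members with the lowest fold changes (-2.17 and -1.41), and Cldn3 had -1.22. Of 20 cadherin, catenin and desmosome genes, 9 were called higher and 4 lower (median 0.10); after transcript length and GC trends were removed these counts were 6 and 8. Pkp1, a desmosomal plakophilin, fell by 2.19 on the log2 scale and the adhesion receptor Nectin1 rose from 47.2 ± 5.31 to 105 ± 6.76. Of 7 tested genes for connexins, which form gap junctions, and a pannexin, 6 were called lower. The 1 called higher was the pannexin gene Panx1 (log2 fold change 0.69). Gja1, connexin 43, was at 196, 241 and 238 in control and at 2.98, 1.04 and 0.957 in Actr3 KO (log2 fold change -6.49 ± 0.29 (SE), adjusted p = 5.46e-13).

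Among 18 collecting duct water and salt transporters and their regulators, 8 were called lower, 5 at least 2-fold, and 3 higher. The median was 0.05, its sign differing from that of most calls, and it turned to -0.05 when chromosome medians were removed. Cftr, the chloride channel on chromosome 6, was at 353, 293 and 339 against 1.99, 7.25 and 1.91. The urea transporter gene Slc14a2 was at 161, 182 and 227 against 17.9, 23.8 and 23, and the sodium channel subunit Scnn1g at 101, 71.2 and 58.7 against 25.8, 10.4 and 11.5. Aqp1, a water channel on chromosome 6, was at 2549, 2756 and 2362 against 706, 798 and 748, with a mean of 4950.3 in dKO and 461 with ciliobrevin D. Sgk1, a kinase that regulates sodium channels and responds to tonicity, was at 3165, 3465 and 3342 against 217, 269 and 275. All 5 genes were without overlap between control and Actr3 KO, with log2 fold changes of -6.30 ± 0.30 (SE), -3.08 ± 0.18 (SE), -2.28 ± 0.29 (SE), -1.77 ± 0.07 (SE) and -3.71 ± 0.08 (SE). Without control replicate 1, the unnumbered control library or Actr3 KO replicate 3, 1 member was called higher in place of 3. Of 7 genes by which medullary cells answer high tonicity, 6 were called lower and none higher (median -1.23), the exception being the regulator Nfat5 itself at 0.08 (not called, adjusted p = 0.359). Akr1b3, the aldose reductase that makes sorbitol, was at 20358, 22795 and 21144 against 2762, 3214 and 2723, and Slc5a3, the inositol transporter, at 6886, 6777 and 7347 against 2562, 2540.2 and 2929.5. Their log2 fold changes were -2.89 and -1.39, and Akr1b3 lies on chromosome 6. The list also holds heat shock protein genes, and Hspa1b (-1.82) and Hspa4l (-1.23, the list median) were at least 2-fold lower too. The count and median therefore do not describe osmolyte genes alone. Of 21 kidney epithelial transcription factors, 7 were called higher and 10 lower (median -0.07, and 0.02 without control replicate 1). Lhx1, a factor of kidney tubule development, rose from 86.2 ± 3.08 to 215 ± 32.6, Gata3, of the collecting duct lineage, from 18.3 ± 2.76 to 54 ± 13.8, and Grhl3, of epithelial barriers, fell from 238 ± 15.4 to 64.8 ± 7.62.

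Cilium genes showed small changes in both directions. Of 38 intraflagellar transport and BBSome genes, 19 were called higher and 10 lower, none of them at least 2-fold (median 0.21). Ift140, a subunit of the retrograde transport complex, was at 1449, 1379.5 and 1342 against 2312, 2282 and 2499, and Ttc26, of the anterograde complex and on chromosome 6, at 772, 817 and 772 against 455, 447 and 489. Both were without overlap, at 0.77 ± 0.06 (SE) and -0.76 ± 0.07 (SE). After removal of length and GC trends, 24 members were called higher and 6 lower. Of 35 transition zone, basal body and ciliary membrane genes, 13 were called higher and 13 lower (median -0.02, and above 0 without control replicate 3 or Actr3 KO replicate 2, at 0.02 and 0.03). Tulp3, which brings receptors into the cilium, had -0.99 and is on chromosome 6, and Rab11a, a GTPase of membrane recycling and cilium initiation, had -0.80. Of 9 Hedgehog pathway genes, 4 were called higher and 2 lower. Gpr161, a ciliary receptor that dampens the pathway, had 0.56 and Smo, the transducer of the pathway, on chromosome 6, -0.50; the call of Smo was lost when chromosome medians were removed (log2 fold change -0.09, adjusted p = 0.211). Genes mutated in cystic kidney disease were mostly higher, 14 of 19 against 1 lower, Vhl on chromosome 6 (median 0.52). The call of Vhl was lost when chromosome medians were removed (log2 fold change -0.07, adjusted p = 0.372). Pkd1, which encodes polycystin 1, was at 3635, 3290.0 and 3678 against 8949, 9392 and 10555, and Pkhd1, which encodes fibrocystin, at 8044, 7209 and 8604 against 15639, 15265 and 18444. No control library reached the range of Actr3 KO, and the log2 fold changes were 1.44 ± 0.06 (SE) and 1.05 ± 0.08 (SE). Lower calls numbered 3 without control replicate 1 or Actr3 KO replicate 3.

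Genes that report signalling through ERK were lower in nearly every case. Of 22 ERK feedback regulators and ETV factors, 20 were called lower, 12 at least 2-fold, and 1, Phlda2, higher (median -1.28). Dusp6, a phosphatase that inactivates ERK and is induced by it, was at 8732, 10555 and 10289.9 in control and 1125, 1209.5 and 1328 in Actr3 KO. Spry4, a Sprouty inhibitor of receptor signalling, was at 1094, 1164 and 1095 against 50.6, 51.8 and 72.8, and the transcription factor Etv4 at 945, 989.9 and 979.9 against 94.3, 127 and 114. The lowest control library of each gene was above the highest Actr3 KO library, and the log2 fold changes were -3.01 ± 0.07 (SE), -4.25 ± 0.12 (SE) and -3.12 ± 0.10 (SE). Dusp4 (-2.58), Dusp5 (-2.46) and Phlda1 (-1.81) fell as well. In Actr3 KO cells given ciliobrevin D the mean was 10277 for Dusp6, 868 for Spry4 and 1179 for Etv4, and in dKO it was 1344, 20.2 and 86.9. Of 27 AP-1, EGR and other rapid-response genes, 26 were called lower, 13 at least 2-fold, and none higher (median -0.96). Fosl1 was at 615, 701 and 670.4 against 44.7, 54.9 and 66.1, Fos at 924, 1117 and 1215 against 222, 229 and 273, and Ier3, an apoptosis regulator, at 9296, 11666 and 11653 against 1436, 1576 and 1657. Their log2 fold changes were -3.58 ± 0.13 (SE), -2.16 ± 0.10 (SE) and -2.80 ± 0.08 (SE), without overlap. Klf4, Csrnp1 and Nr4a1 had -2.002, -2.001 and -1.98. Klf10 was the member not called (log2 fold change 0.11, adjusted p = 0.0862), and it was called higher without the unnumbered control library, which brought the higher count to 1.

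Of the EGF family, 3 ligands were lower, and Egf and the receptor genes were higher. Among 11 EGF receptor ligands and ERBB receptors, 4 were called lower and 5 higher (median 0.14). Hbegf, a heparin-binding EGF ligand, was at 5585, 6698 and 7401 against 2579, 2561 and 2549, Tgfa at 2242, 2067 and 2222 against 1082, 1041 and 1088, and Areg, amphiregulin, at 41.6, 49.8 and 44.2 against 0.993, 2.07 and 0. These libraries did not overlap, and the log2 fold changes were -1.35 ± 0.07 (SE), -1.02 ± 0.06 (SE) and -4.66 ± 0.43 (SE). The other member called lower was Errfi1, a feedback inhibitor of the receptor. Egf itself rose at a low level, from 51.9 ± 10.7 to 132 ± 17.6, and the receptor genes Egfr, Erbb2 and Erbb3, with the sheddase Adam17, were the others called higher, at 0.57, 0.27, 0.48 and 0.32. Ccnd1, the cyclin D1 that growth signals induce, was at 1038, 1037 and 983 against 102, 82.8 and 107, log2 fold change -3.38 ± 0.10 (SE). Of 39 cell cycle and replication genes, 22 were called lower and 3 higher (median -0.30), with only Ccnd1 and Ccne1 (-1.43) at least 2-fold lower. Of 26 TGF-beta and BMP genes, 11 were called higher and 8 lower (median 0.09). The ligands moved apart: Tgfb3 rose from 524 ± 25 to 1436 ± 54.3, Bmp7 from 112 ± 9.5 to 579 ± 17.4, Bmp2 from 8.59 ± 2.19 to 55.7 ± 10.4 and Inhbb by 1.09, whereas Inhba fell by 1.69 and Bmp3 by 1.64 on the log2 scale. Of 25 WNT genes, 11 were called higher and 9 lower (median -0.06). Dkk2, a secreted WNT antagonist, was at 13.9, 8 and 8.12 in control and 714, 512 and 651 in Actr3 KO, log2 fold change 5.86 ± 0.19 (SE). Wnt5b had 1.96 and the feedback gene Axin2 1.75, while Wnt10a had -1.99 and Wnt11 -1.88. Of 8 IGF genes, 4 were called higher and 1, Igf2bp2, lower (median 0.21), with Igf2r at 0.73 and Irs2 at 0.42; the call of Irs2 was lost after removal of length and GC trends (log2 fold change 0.11, adjusted p = 0.135).

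The chemokine genes Cxcl1, Cxcl2, Cxcl5 and Ccl2 were lower, while 3 other members of the chemokine list were higher. Of 13 chemokine genes, 8 were called lower and 3 higher (median -0.76). Cxcl1 was at 2249, 2731 and 2535 against 231, 225 and 218, Cxcl2 at 383, 549 and 488 against 9.93, 15.5 and 25.8, and Ccl2 at 292, 318 and 324 against 31.8, 17.6 and 23.9. The lines did not overlap, and log2 fold changes were -3.47 ± 0.07 (SE), -4.79 ± 0.23 (SE) and -3.65 ± 0.17 (SE); Cxcl5 had -2.107. The 3 that rose were Csf1, the growth factor of macrophages, at 4884, 4722 and 5029 against 12323, 11598 and 13106, Cxcl16 (1.42) and Cxcl14 (1.14). Of 15 interleukin and LIF family genes, 8 were called lower and 4 higher (median -0.22). Lif, Il11, Il34 and the receptor antagonist Il1rn were at least 2-fold lower, with -1.01, -2.23, -1.19 and -1.15. The 4 called higher were receptors: Il1r1 (0.73), Osmr (0.80), Il6st (0.82) and Lifr (0.94). Of 10 prostaglandin genes, 5 were called lower and 4 higher. Ptgs2, the inducible cyclooxygenase, was at 4138, 5069.8 and 4659.5 against 109, 115 and 164, log2 fold change -5.17 ± 0.11 (SE), and Ptges3, a prostaglandin E synthase and HSP90 cochaperone, had -1.08. Ptgds, the prostaglandin D synthase, rose from 137, 151 and 156 to 1039, 1008 and 909, log2 fold change 2.73 ± 0.09 (SE). Ptprc, the leukocyte antigen CD45, was at 24.3, 27.6 and 27.1 against 0.993, 2.07 and 1.91, while the macrophage marker Cd68 was not called (adjusted p = 0.996) and Adgre1, another macrophage marker, had 0 reads in both lines.

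Interferon-stimulated genes were higher, from the sensors of foreign RNA to the effectors and the class I antigen presentation machinery. Interferons bind receptors that activate a complex of transcription factors, IRF9 among them, and the complex binds a DNA element that holds repeats of GAAA. The letters GAAA, any 2 bases and GAAA, on either strand, were searched in the 250 bases before the start of each RefSeq gene (GRCm38.p6). They occurred in 978 of 32851 promoters (2.98%), in 15 of the 35 promoters (42.9%) that the table holds for 30 of the tested interferon effectors, in 3 of 20 (15%) of class I antigen presentation genes and in 0 of 20 of ERK feedback genes. For comparison, TGANTCA, the letters of the AP-1 site, occurred in 6.75% of all promoters and in 22.9% of those of the effectors, and TTCNNNGAA, those of a STAT site, in 7.02% and 22.9%. None of these 3 motifs contains another. A match is a description of the letters and does not show that a factor binds. The promoters of 4 genes that hold the letters and were called higher are shown first, followed by those of Isg15 and Ifit3, which hold them and were not called. Each is the gene's own strand, 5′ to 3′, with the matches in capitals and overlapping matches joined. A match on the opposite strand reads TTTC, 2 bases and TTTC. The sequences are from RefSeq, build GRCm38.p6, at chr5:120777660-120777909 (minus strand) for Oas3, chr3:142530086-142530335 (plus) for Gbp7, chr12:26456453-26456702 (minus) for Rsad2, chr19:34640639-34640888 (plus) for Ifit1, chr4:156200819-156201068 (minus) for Isg15 and chr19:34583279-34583528 (plus) for Ifit3. These 6 genes were chosen after their values were seen.
Oas3: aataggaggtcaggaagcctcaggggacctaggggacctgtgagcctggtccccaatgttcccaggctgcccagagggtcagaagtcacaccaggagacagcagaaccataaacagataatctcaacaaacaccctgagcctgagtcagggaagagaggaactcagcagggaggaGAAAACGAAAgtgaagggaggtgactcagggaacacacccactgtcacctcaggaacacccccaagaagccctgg
Gbp7: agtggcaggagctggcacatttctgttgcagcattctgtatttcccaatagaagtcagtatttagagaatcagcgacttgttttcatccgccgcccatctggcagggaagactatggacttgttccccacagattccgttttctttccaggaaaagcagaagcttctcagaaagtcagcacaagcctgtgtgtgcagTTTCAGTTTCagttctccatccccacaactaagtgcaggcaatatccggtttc
Rsad2: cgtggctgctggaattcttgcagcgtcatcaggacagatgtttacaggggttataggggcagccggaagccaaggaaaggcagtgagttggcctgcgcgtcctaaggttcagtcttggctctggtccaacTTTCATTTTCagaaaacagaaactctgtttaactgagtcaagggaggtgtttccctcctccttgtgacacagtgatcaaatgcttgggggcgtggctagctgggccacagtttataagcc
Ifit1: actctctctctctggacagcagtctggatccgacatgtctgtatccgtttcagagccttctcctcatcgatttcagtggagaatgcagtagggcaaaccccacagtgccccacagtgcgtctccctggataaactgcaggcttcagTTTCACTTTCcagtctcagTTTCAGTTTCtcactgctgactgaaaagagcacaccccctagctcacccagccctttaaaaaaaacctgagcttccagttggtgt
Isg15: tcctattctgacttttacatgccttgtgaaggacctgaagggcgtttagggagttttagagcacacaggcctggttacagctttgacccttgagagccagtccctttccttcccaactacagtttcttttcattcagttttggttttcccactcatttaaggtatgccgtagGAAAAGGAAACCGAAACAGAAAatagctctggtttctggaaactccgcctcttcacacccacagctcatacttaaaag
Ifit3: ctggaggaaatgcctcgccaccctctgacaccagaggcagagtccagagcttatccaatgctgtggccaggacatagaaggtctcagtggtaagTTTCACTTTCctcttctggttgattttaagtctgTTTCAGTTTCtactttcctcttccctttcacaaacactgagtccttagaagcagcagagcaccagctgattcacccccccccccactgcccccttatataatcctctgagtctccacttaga

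Of 39 tested interferon effectors, 33 were called higher, 22 at least 2-fold, and 4 lower (median 1.32). Oas3, which makes the messenger that activates RNase L, was at 13.9, 10.7 and 7.22 in control and 194, 168 and 145 in Actr3 KO. Gbp7, a guanylate-binding protein, was at 78, 62.3 and 55 against 759.7, 643 and 715. Rsad2, viperin, was at 58.1, 45.4 and 51.4 against 217, 242 and 216, and Ifit1, which binds foreign RNA, at 104, 128 and 109 against 361, 311 and 271. For these 4 genes every Actr3 KO library exceeded every control library, and the log2 fold changes were 3.90 ± 0.22 (SE), 3.43 ± 0.12 (SE), 2.1 ± 0.13 (SE) and 1.45 ± 0.12 (SE). Rtp4 (2.91), Oasl2 (2.60), Xaf1 (2.42), Parp14 (2.30) and Ifi27 (1.49) rose too, and Gbp6 and Trim12a, outside the list, had 3.82 and 3.59. Isg15, a ubiquitin-like modifier, was at 90.2, 72.9 and 106 against 114, 107 and 77.5. Ifit3 was at 8514, 7263 and 8391 against 7805, 7823 and 7491. The ranges of the lines overlapped for both, and neither was called (log2 fold change 0.14, adjusted p = 0.462, and -0.06, adjusted p = 0.394); Isg15 was called higher after removal of the length trend (0.47, adjusted p = 0.0174). The 4 members called lower were Ifi204, from 15.1 ± 1.61 to 0.331 ± 0.573, Herc6 (-0.24), Samhd1 (-0.22) and Ifit3b (-0.15). Ifit3 and Ifit3b are close paralogs, so their counts are uncertain, and the call of Ifit3b was lost when any library except the unnumbered control was left out (adjusted p from 0.0606 to 0.184). Herc6 on chromosome 6 became higher when chromosome medians were removed (log2 fold change 0.18, adjusted p = 0.0240). Of the 15 effectors whose promoter holds the letters, 12 were called higher, with a median of 1.32. Of the 15 with a promoter in the table that lacks them, 13 were, with a median of 0.91. Of the 9 with no promoter in the table, 8 were called higher, with a median of 2.30.

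Of 25 sensors, receptors and transcription factors of the interferon response, 18 were called higher and 2 lower (median 0.46). Ddx58, which encodes the RNA sensor RIG-I, was at 577, 515 and 476 against 1378, 1318 and 1437, and Ifih1, which encodes MDA5, at 479, 392 and 391 against 996, 1089 and 1087. The factor Irf7, which amplifies interferon production, was at 67.6, 56.9 and 55 against 324, 314 and 258. Each of the 3 was higher in every Actr3 KO library, with log2 fold changes of 1.40 ± 0.07 (SE), 1.33 ± 0.08 (SE) and 2.30 ± 0.13 (SE). Dhx58 had 1.72 and Irf9 1.08. The 2 called lower were Sting1, which signals the presence of cytosolic DNA (-0.41), and Irf2, a repressor (-0.13); the lower count was 1 when any library other than the unnumbered control was left out. Of 20 class I antigen presentation genes, 19 were called higher, 12 at least 2-fold, and none lower (median 1.12); the 1 not called was the chaperone Calr (0.07, adjusted p = 0.407). Nlrc5, the transactivator of this gene group, was at 7.8, 7.12 and 4.51 against 322, 279.6 and 307. Tap1, a subunit of the peptide transporter, was at 252, 264 and 285 against 2759, 2579 and 2713, and Psmb9, of the immunoproteasome, at 37.3, 48.9 and 34.3 against 440.0, 409 and 389.6. The log2 fold changes were 5.37 ± 0.20 (SE), 3.32 ± 0.07 (SE) and 3.34 ± 0.14 (SE), and no libraries overlapped. Tap2 (1.91) and Psmb8 (1.79) lie beside Tap1 and Psmb9 on chromosome 17. The class I genes H2-Q4 and H2-Q6 had 1.70 and 5.98, and Apol9a and Apol9b, outside the list, 5.12 and 4.00, but each has near-identical neighbours that may share reads. The mean of Tap1 was 1228 in dKO and 1478 with ciliobrevin D, and that of Oas3 182 and 66.1. The interferon groups and the constitutive proteasome moved apart: of its 30 subunits and activators, 30 were called lower (median -0.70).

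**Figure D3:**
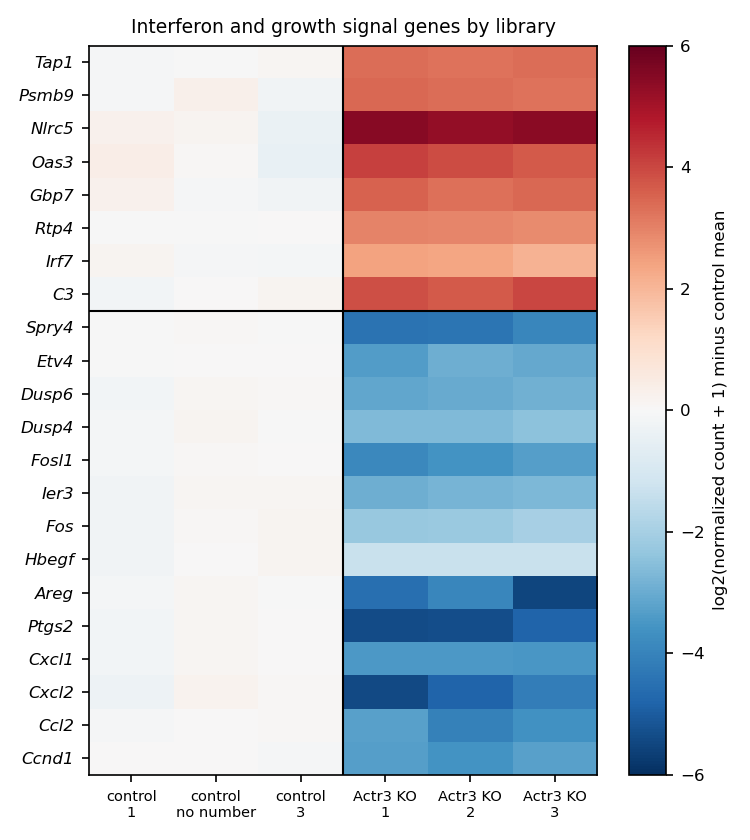
Log2(normalized count + 1) of selected named genes in each of the 6 libraries after subtraction of the control mean, red above and blue below it. The upper block holds interferon, antigen presentation and complement genes, from Irf7 at a log2 fold change of 2.30 to Nlrc5 at 5.37, and the lower block growth signal genes, chemokines and Ptgs2 at -5.17.

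NF-kB and complement genes were also mostly higher. Of 18 NF-kB subunits and feedback genes, 12 were called higher and 3 lower (median 0.51). Nfkbie, an inhibitor that NF-kB induces, was at 180.4, 182 and 208 against 705, 710.4 and 634, the kinase Ikbke at 532, 516 and 513 against 1541, 1490.2 and 1306 and the subunit Relb at 779.5, 881 and 937 against 1943, 1741 and 1849.6. These 3 genes did not overlap between lines, with log2 fold changes of 1.84 ± 0.09 (SE), 1.47 ± 0.07 (SE) and 1.09 ± 0.07 (SE). The members called lower were Traf1, an adaptor, from 33 ± 9.18 to 4.03 ± 2.15, Tnfaip2 (-0.73) and Nfkbib (-0.25). Of 9 complement and acute phase genes, 6 were called higher and 1, clusterin (Clu, -0.67), lower (median 0.96). C3, the central component, was at 132, 150.3 and 165 against 2162, 1901 and 2392, log2 fold change 3.84 ± 0.09 (SE). C1ra and C1s1, neighbouring genes for the proteases of the classical pathway on chromosome 6, rose from 40.9 ± 7.64 to 234 ± 11.6 and from 10.9 ± 5.31 to 80.1 ± 3.09. C4b, which may share reads with a near-identical copy, had 4.73.

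Stress defences were lower as groups. All 18 heat shock chaperones and cochaperones tested were called lower, 7 of them at least 2-fold (median -0.75). Hsph1 was at 10533, 11055 and 10511 against 2721, 2941 and 3142, Hspb1 at 10144, 10247 and 9904 against 2184, 3040.4 and 2710.3, and the mitochondrial chaperonin pair Hspd1 and Hspe1 had -1.07 and -1.22. Hspa1a and Hspa1b, near-identical genes for the inducible HSP70, had -3.19 and -1.82, but Hspa1b was counted with the tonicity genes and not in this list. The libraries of all these genes were without overlap. Of 20 targets and regulators of NRF2, the factor that drives antioxidant genes, 18 were called lower, 10 at least 2-fold, and 2 higher (median -1.12). Hmox1, heme oxygenase, was at 6232, 9133 and 9186 against 609.8, 742 and 805. Slc7a11, the cystine importer, was at 624, 744 and 780.5 against 72.5, 62.1 and 84.2, and Gclm, which with Gclc starts glutathione synthesis, at 5178, 5395 and 5372 against 1730.0, 1872 and 1830.5. The lines did not overlap, with log2 fold changes of -3.49 ± 0.11 (SE), -3.28 ± 0.12 (SE) and -1.55 ± 0.05 (SE); Gclc had -1.36, Me1 -1.42 and G6pdx -1.43. The 2 called higher were Keap1, the inhibitor of NRF2 (0.14), and Cbr3 (0.30), and 1 was left when control replicate 1, the unnumbered control or any Actr3 KO library was left out. Metallothioneins went the other way: Mt1 was at 254, 256 and 267 against 1046, 1140.1 and 1109 and Mt2 at 42.5, 51.6 and 58.7 against 179.8, 178 and 191, log2 fold changes 2.08 ± 0.07 (SE) and 1.84 ± 0.14 (SE). In the same list of 12 metal genes, 6 were called higher and 4 lower, among the latter the transferrin receptor Tfrc (-1.89) and the ferritin light chain Ftl1 (-1.14), while the ferrireductase Steap3 rose from 7.34 ± 3.51 to 50.1 ± 6.75.

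Of 29 genes of the ATF4 and unfolded protein responses, 16 were called lower and 3 higher (median -0.25), with 6 higher after removal of the length trend. Ddit4, an inhibitor of mTORC1, was at 6447, 8215 and 8561 against 1641, 1853 and 1668, Psat1, of serine synthesis, had -1.36, Mthfd2, of mitochondrial folate metabolism and on chromosome 6, -1.56, and the stress factor Nupr1 -1.15. Herpud1, of endoplasmic reticulum degradation, rose from 1602 ± 129.7 to 3380.0 ± 221. Of 20 genes of p53 and its targets, 11 were called lower and 4 higher (median -0.20). The apoptosis gene Pmaip1 fell by 1.30 on the log2 scale, and the death receptor gene Fas was at 6.94, 3.56 and 14.4 against 28.8, 31.1 and 23 (log2 fold change 1.79 ± 0.38 (SE)). Of 12 BCL2 family genes, 6 were called lower and 3 higher (median -0.14), none at least 2-fold, with Bcl2l1 at -0.53 and Bok at 0.56.

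Glycolysis was lower while transcripts encoded in mitochondrial DNA were higher. Of 28 glycolysis, pyruvate and lactate genes, 21 were called lower, 10 at least 2-fold, and 2 higher (median -0.80). Slc16a3, the lactate exporter MCT4, was at 930.4, 1146 and 1159 in control and 24.8, 26.9 and 37.3 in Actr3 KO. Hexokinase 2 (Hk2), on chromosome 6, was at 6254, 6687 and 7384 against 909, 995 and 1102, and Ldha, lactate dehydrogenase A, at 20292, 24986 and 23775 against 7375, 6790.1 and 7047. Each was lower in all 3 Actr3 KO libraries, with log2 fold changes of -5.15 ± 0.14 (SE), -2.76 ± 0.07 (SE) and -1.70 ± 0.07 (SE). Pgk1, Pgam1 and Gapdh had -1.46, -1.32 and -1.42, Gapdh having many near-identical copies in the genome, and Pkm was among the 8 genes that lost the most counts (-0.85). With ciliobrevin D the mean of Hk2 was 10213 and that of Slc16a3 28.4, and in dKO 676 and 14.7. The 2 glycolysis genes called higher were Pfkm (0.33) and Pdk2 (1.23), the latter an inhibitor of pyruvate dehydrogenase. Of 19 genes of oxygen sensing and hypoxia, 11 were called lower and 3 higher (median -0.73). Ankrd37 was at 662, 873 and 838 against 115, 171 and 158, Higd1a, a mitochondrial protein, had -1.66, Bnip3, of mitophagy, -1.24 and the prolyl hydroxylase gene Egln1 -1.03. Stc2, stanniocalcin 2, rose from 1454 ± 106 to 3555 ± 328.

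All 15 mitochondrially encoded genes tested were called higher, with log2 fold changes from 0.60 to 1.74 (median 1.01). The libraries of ND4L and ATP8 overlapped between the lines. Among the 15 are the ribosomal RNAs mt-Rnr1 and mt-Rnr2, counted here in poly(A)-selected libraries. The 15 genes took 4.27%, 4.00% and 4.92% of reads in the control libraries and 7.90%, 9.07% and 9.49% in the Actr3 KO libraries. In dKO the share was 4.88% to 4.97%, and with ciliobrevin D 8.30% to 9.33%. The 10 most abundant transcripts held 5.18% to 5.90% of a control library and 8.69% to 10.2% of an Actr3 KO library. COX1, a subunit of cytochrome oxidase, was the gene with the most counts, at 612214, 575110.2 and 716262 in control and 1067729, 1222101 and 1329397 in Actr3 KO. The lines did not overlap, but its call (log2 fold change 0.93 ± 0.33 (SE), adjusted p = 0.0169) was lost when any library except Actr3 KO replicates 1 and 3 was left out (adjusted p from 0.0613 to 0.132). ND5 of complex I was at 91846, 79664 and 106001 against 161992, 188874 and 206349 (1.01 ± 0.15 (SE)) and the ribosomal RNA mt-Rnr2 at 110149, 116946 and 106261 against 265109.5, 309379 and 358295 (1.47 ± 0.16 (SE)). ND1, ND2, ND4 and CYTB had 0.94, 0.78, 1.17 and 0.79. Quantile normalization, which gives all libraries the same highest values, removed the calls of COX1, CYTB and ND1 (log2 fold changes 0.00, -0.04 and 0.04). The list of nuclear genes of oxidative phosphorylation, which also holds 2 coactivators of mitochondrial gene expression, was mostly lower: of 40 tested, 28 were called lower and 5 higher (median -0.29). Cycs, cytochrome c, was at 2574, 2958 and 2582 against 631, 814 and 672, and Ndufa4 and Ndufa5 had -1.46 and -1.09; all 3 lie on chromosome 6. The coactivators Ppargc1a and Ppargc1b were among the 5 higher, at 89.3, 124 and 88.4 against 440.0, 424 and 470.1 and at 55.5, 70.3 and 62.3 against 177, 162 and 201. Their log2 fold changes were 2.15 ± 0.12 (SE) and 1.51 ± 0.14 (SE). Transcripts of these nuclear genes are short, with a median length of 1698 bases, and after removal of the length trend 9 were called higher and 21 lower (median -0.12).

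**Figure D4:**
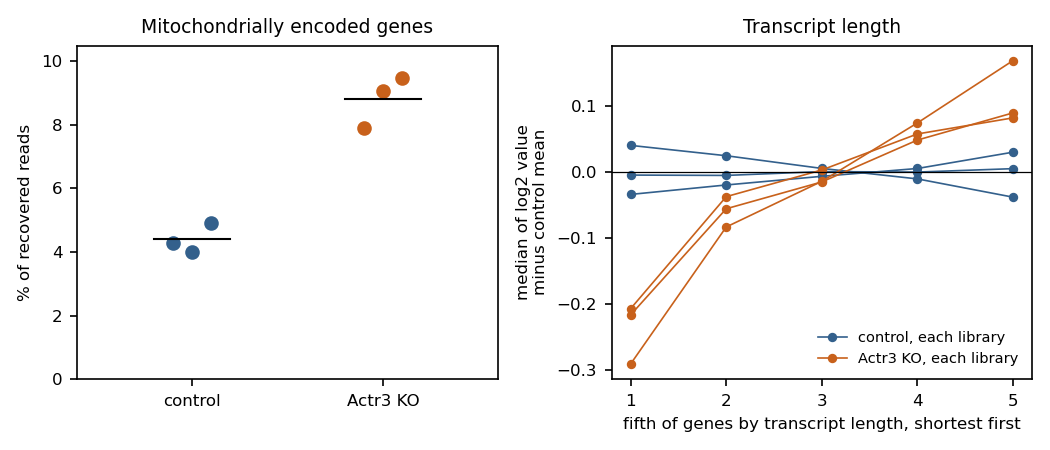
Left, the share of recovered reads from mitochondrially encoded genes in each library, with a black line at the group mean, at 4.00% to 4.92% in control and 7.90% to 9.49% in Actr3 KO. Right, the median over genes of the log2 value minus the control mean, in quintiles of genes by transcript length, 1 line a library; in Actr3 KO the medians rise from the shortest quintile to the longest, and the control libraries differ among themselves by less.

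Of 27 genes of cholesterol synthesis, uptake and export, 23 were called lower and 2 higher (median -0.49). Idi1 was at 1849, 1694 and 1706 against 576, 775 and 583 and Cyp51, lanosterol demethylase, at 18351, 18053 and 17807 against 6988, 8130.1 and 8099. Their libraries did not overlap, at -1.45 ± 0.09 (SE) and -1.23 ± 0.06 (SE). The 2 called higher were Srebf1 (0.62) and Scap (0.17), regulators of lipid synthesis, and without Actr3 KO replicate 1 there were 4. Of 32 lysosomal genes, 15 were called higher and 10 lower (median 0.10). Rragd, a GTPase that recruits mTORC1 to lysosomes, was at 39.9, 24.9 and 28 against 639, 700.0 and 705 (log2 fold change 4.44 ± 0.14 (SE)), and the enzymes Hexa and Gaa, which break down gangliosides and glycogen, rose by 1.57 and 1.37. Gla, alpha-galactosidase A, fell by 1.08 on the log2 scale. Of 11 retinoid genes, 6 were called lower and 4 higher, with the retinol transporter Stra6 (1.39) and the reductase Dhrs3 (1.05) at least 2-fold higher and Aldh1a3 lower at a low level (-1.18). App, the amyloid precursor gene, gained more counts than any other nuclear gene, from 102649, 104854 and 113619 to 187446, 186399 and 208724 (log2 fold change 0.86 ± 0.14 (SE)).

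Genes of the translation and protein turnover machinery were lower by small amounts. Of 50 cytosolic ribosomal protein genes, 49 were called lower and 1, Rps15, higher (median -0.57). Rps2 was at 36273, 37696 and 34839.9 against 16333, 17619.9 and 15419, and Rpl27 and Rpl32, the latter on chromosome 6, had -1.09 and -1.17. Many ribosomal protein genes have processed copies, so counts of single members are uncertain. Rps15 (0.18, adjusted p = 0.0329) was not called without control replicate 1, control replicate 3 or Actr3 KO replicate 1. The elongation factor gene Eef1a1 and the chaperone gene Hsp90ab1 were among the 8 genes that lost the most counts, at -0.65 and -0.66. Among the proteasome genes Psma2 was at 2927, 3047 and 3123 against 1527, 1522 and 1395 and Psmd11 at 3744, 3908 and 3644 against 1945, 2047 and 1929, without overlap and at -1.03 ± 0.06 (SE) and -0.93 ± 0.05 (SE). Transcript length moved with these differences. Genes in the quintile with the shortest transcripts had a median log2 fold change of -0.23 and those in the longest quintile of 0.11, over the 12404 tested genes with a length. The median transcript of the ribosomal protein list was 1192 bases and that of the proteasome list 1705 bases. After removal of the length trend the medians of these lists were -0.39 and -0.53, with 45 of 50 and 30 of 30 members called lower. The basement membrane list, with a median of 6270 bases, had 22 higher and 5 lower calls after removal of the trend, at a median of 0.69.

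Genes of chromosome 6 were lower as a group, and those of chromosome 5 to a lesser degree. On chromosome 6, 403 of 628 tested genes were called lower (64.2%, against 36.6% of all genes) and 93 higher, and the median log2 fold change was -0.42. On chromosome 5, 457 of 843 were called lower (54.2%), with a median of -0.25, and on chromosome X 176 of 373 (47.2%), with a median of -0.14. The medians of the other autosomes lay between -0.05 and 0.11. In windows of 10 megabases with at least 20 tested genes, chromosome 6 had medians from -0.77, in the first window, to -0.19 up to 140 megabases, and 0.14 in the window from 140 to 150 megabases. All 3 Actr3 KO libraries showed the same pattern. Besides those placed there above, Tgfa, Gapdh and Wnt5b lie on chromosome 6. Among the named genes on chromosome 5 are the subunit genes Arpc3, Arpc1a and Arpc1b, with Actb, Spp1, Cxcl1, Cxcl2, Hsph1, Hspb1, Cldn3 and Cldn4. Areg, Cxcl5, Bmp3, Dynll1, Cyp51 and Zfp518b, called lower, also lie there, as do Oas3, Oasl2, Gbp6 and Ppargc1a, called higher. After removal of the chromosome medians Akr1b3, Hk2, Tmsb10 and Cftr had log2 fold changes of -2.47, -2.34, -1.56 and -5.89. The part of the chromosome-wide shift in the fold changes of single genes was not tested beyond this.

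**Figure D5:**
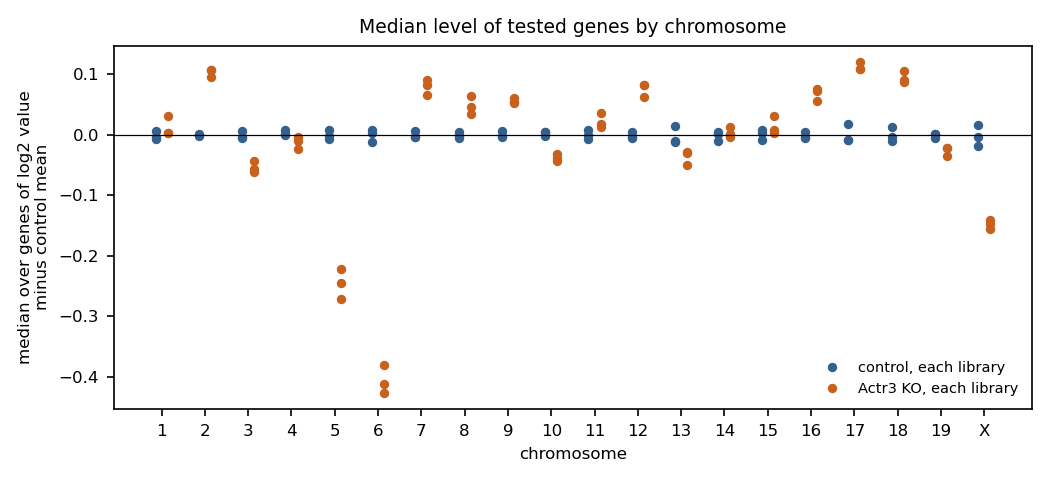
Median over the tested genes of each chromosome of log2(normalized count + 1) minus the control mean, 1 point a library, blue for control and orange for Actr3 KO. The 3 Actr3 KO libraries sit near -0.4 on chromosome 6 and between -0.2 and -0.3 on chromosome 5, and the control libraries stay near 0 on every chromosome.

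Some genes expressed in control were at or near 0 in Actr3 KO, and most of those named here were also low in the other 2 groups that carry the knockout. Zfp518b, a zinc finger gene, was at 119, 103 and 95.6 in control and had 0 reads in all 3 Actr3 KO libraries. With 359 reads in control, its level was at least 106-fold lower, taking 3 reads in the whole group as the limit that a count of 0 allows for counting error alone. Its mean was 0 in dKO and 0 with ciliobrevin D. Ak4, an adenylate kinase of mitochondria, was at 117, 157 and 135 against 0, 1.04 and 0, with a mean of 0 in dKO and 0.411 with ciliobrevin D. The transcription factor Tbx15 was at 247, 243 and 295 against 0.993, 2.07 and 0.957 (dKO 1.27, ciliobrevin D 2.73), and Magohb, of the exon junction complex and on chromosome 6, at 175, 201 and 208 against 0.993, 0 and 2.87 (dKO 0.635, ciliobrevin D 1.91). Gnai1, an inhibitory G protein subunit, was at 439, 433 and 387 against 5.96, 3.11 and 4.79, and Marcks, a protein that binds actin and membranes, at 323, 318 and 345 against 2.98, 8.28 and 2.87. Miga1, of mitochondrial fusion, was at 799, 683 and 809 against 18.9, 6.21 and 14.4. The imprinted RNA H19 was at 921, 857 and 657 against 10.9, 26.9 and 9.57. Lack of overlap with control was part of the rule that named these genes, and 74.3% of all genes tested had it. Their log2 fold changes ran from -6.84 for Tbx15 to -5.72 for H19. Gja1, Cftr and Fstl1 were of the same kind, with means of 0.31, 6.66 and 6.61 in dKO and 3.54, 5.95 and 3.85 with ciliobrevin D. Rgs16, a regulator of G protein signalling, was near 0 in Actr3 KO, at 0.993, 4.14 and 1.91 against 131, 169.9 and 120.0 in control, and had a mean of 0 in dKO and 79.5 with ciliobrevin D. In the opposite direction Slc35f3, a transporter gene, was at 6.07, 7.12 and 9.93 against 117, 106 and 111, with 18.2 in dKO and 125 with ciliobrevin D. The 3 groups that carry the knockout share the control libraries in any such comparison, and differences between them were not tested.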

How the data were processed

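RNA of 12 mIMCD3 libraries (poly(A) selected, 4 groups of 3) was sequenced by the authors, and the 6 control and Actr3 KO libraries were compared. The submitters' processing notes name HISAT2 2.2.1 and fastp 0.23.2, with DESeq2 2.11.40.7 and featureCounts 2.0.1 (mm10/GRCm38). The sources used here do not give the strand setting of the counting. The deposited values are a normalized signal per gene, that is, the authors' counts divided by a size factor for each library. Dividing each column by its smallest step gave whole reads within a tolerance of 0.01, for 100% of values, which set the depths given in the report. On these reads edgeR called 4826 genes higher and 4967 lower.

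Genes that reached 10 in 3 or more of the 6 libraries were tested on log2(value + 1) with limma 3.58.1 (two-sided, variance trend), with Benjamini-Hochberg adjustment over all genes tested. The fit was also run on simulated counts. Far fewer genes changed there than were called here, and no shift by chromosome or transcript length was built in. That run therefore cannot vouch for the calls in these data. Of 27179 gene IDs, 25275 matched a symbol in RefSeq and 1904 did not. Named genes were the Arp2/3 subunits, the 12 highest and 12 lowest fold changes of called genes without overlap whose higher group averaged 100 or more, the 8 called genes that gained and the 8 that lost the most counts, and members with 0 reads in 1 group. From each list came up to 6 members called at 2-fold or more, those with the smallest adjusted p. Where fewer than 2 members reached that, up to 2 called members with the smallest adjusted p were named. Where no member was called, the 2 with the smallest p were named. The members and the 55 gene lists were chosen with earlier results of these data known. Alternatives were other pseudocounts, filters and scalings, edgeR 4.0.16 and DESeq2 1.42.0 on the recovered reads, all 12 libraries in the fit, a replicate block and leaving out each library. Chromosome medians were also removed, and, chosen after seeing the data, trends with transcript length and GC content (GENCODE M21, longest transcript). Promoters and their strand and build are from RefSeq GRCm38.p6. Some items are not reported here.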

Additional observations from a re-analysis of the deposited data

How the results depend on the processing

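Under 19 alternatives the numbers of genes called higher and lower stayed within 1.5 times those reported. Of calls at 2-fold or more, a mean of at least 50 in place of the filter left 493 higher and 525 lower, and no filter gave 1237 lower, over fewer and more genes tested. With a library left out, 4481 to 4695 genes were called higher and 4677 to 4862 lower, and 771 to 825 and 757 to 840 at 2-fold or more. Libraries of the same replicate number had correlations of deviations of -0.03 and 0.05, and the other pairs of a control and an Actr3 KO library from -0.08 to 0.06. So few pairs cannot settle whether libraries of the same number share anything. With the replicate block, to which the unnumbered control and Actr3 KO replicate 2 cannot contribute, 4102 genes were called higher and 4387 lower, and 803 and 825 at 2-fold or more. After removal of length and GC trends, a choice made after seeing the data, the log2 fold changes of Erbb2 (-0.025), Keap1 (-0.086), Scap (-0.12), Ifit3 (0.15) and Ifit3b (0.065) turned sign. So did Herc6 with chromosome medians removed (0.18) and CYTB after quantile normalization (-0.039). The cause was not tested. Of the 55 lists, 32 had a count moved by over 1.5 times or a median of another sign under some alternative. Depth of 31425219 reads or more limits little of what is named, other than genes at a few reads. With 3 libraries a group, and a column name that leaves the line of 1 control library in doubt, all values describe these libraries.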
